A study of Mus musculus with 6 samples.

Results

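The complement genes measured here in cortical thymic epithelial cells (cTEC) are 9 members taken by symbol from the 39179 genes of the count table. They are *C1qa* and *C1s1* of the initiating complex, *C2*, *C4b*, *C3* and *Cfb* of the convertases, the protease gene *Cfi*, and the membrane regulators *Cd55* and *Cd59a*. Each symbol matched 1 Ensembl gene. The cells came from untreated Cxcl12DsRed knockin mice on a C57BL/6 background at 10 weeks of age, in which the red fluorescent protein DsRed reports *Cxcl12*. CD45- EpCAM1+ UEA1- Ly51+ cells were sorted into 3 libraries of Cxcl12DsRed- cTEC and 3 libraries of Cxcl12DsRed+ cTEC, with 1 library of each from experiments A, B and C. How many mice went into a library is not given in the sources used here, and both subsets carry the same reporter allele.

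Complement is a protein cascade that tags surfaces and can pierce membranes. C1q, with its proteases C1r and C1s, starts the classical pathway by cleaving C4 and C2, whose fragments form an enzyme that cleaves C3. Factor B supplies the catalytic part of the corresponding enzyme of the alternative pathway, which amplifies C3 cleavage. Factor I, a serine protease, inactivates C3b and C4b with the help of cofactors, CD55 speeds the decay of both enzymes on the cell's own surface, and CD59 blocks the membrane attack complex. Most plasma complement comes from the liver, while epithelial cells, fibroblasts and macrophages make components locally, and C1q is made mainly by macrophages and dendritic cells.

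The 9 members summed to 2373 to 2916 CPM (counts scaled to library size) in Cxcl12DsRed- cTEC and to 996 to 2440 CPM in Cxcl12DsRed+ cTEC. *C2* was 3.51-fold higher and *Cd55* 4.61-fold higher in Cxcl12DsRed- cTEC, each above every Cxcl12DsRed+ library and in all 3 experiments. *Cd59a* was lower, at 0.446 times its Cxcl12DsRed+ level. *C3*, by far the most abundant member, was read at a mean of 2302 CPM in Cxcl12DsRed- cTEC and 1592 CPM in Cxcl12DsRed+ cTEC, with overlapping libraries. None of the 8 members tested passed an adjusted p of 0.05 in edgeR's quasi-likelihood test, a threshold that 0.623% of the 15576 genes tested passed. At an unadjusted p under 0.05 the same test had 3 members (*C2*, *Cd55* and *Cd59a*), where 1840 of all genes stood. Calls differed by tool. By edgeR's likelihood ratio test 2 members passed, *C2* and *Cd55*, where 5.65% of all genes did. By DESeq2 the same 2 passed, where 7.19% did. With limma voom no member passed, where only 4 of the 15576 genes did. The ninth member, *C1qa*, was left out by the filter on low counts.

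Libraries held 34574900 to 51042679 counts in genes. The DsRed transcript stood at 17.6 to 27.8 CPM in Cxcl12DsRed- cTEC and at 860 to 2059 CPM in Cxcl12DsRed+ cTEC. A list of 11 cTEC markers, none of them at 0 counts throughout, summed to 2744 to 4766 CPM and to 9226 to 15093 CPM in the same order. Of these, 9 were lower in every Cxcl12DsRed- library and 1, *Epcam*, was higher in every one. *Krt8*, a large part of both sums, overlapped, with means of 2934 and 3054 CPM in the same order. The Cxcl12DsRed- library of C stood nearer to the Cxcl12DsRed+ libraries than its partners did, with correlations of log2 CPM across genes of 0.871 to 0.923 against 0.772 to 0.852. Markers of other cells also moved with the subsets. All 10 tuft cell markers and 8 of 9 secretory epithelial markers were higher in every Cxcl12DsRed- library, with sums of 482 to 2620 against 36.2 to 38.9 CPM and of 2407 to 5876 against 824 to 1496 CPM. For fibroblasts, 2 of 9 markers (*Dcn* and *Fbln1*) did not overlap, and the list summed to 3775 to 5025 CPM in Cxcl12DsRed- cTEC and 1286 to 1903 CPM in Cxcl12DsRed+ cTEC. Endothelial genes went the other way, 8 of 9 being lower in every Cxcl12DsRed- library, at 40.7 to 81.9 against 567 to 4543 CPM.

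**Figure D1:**
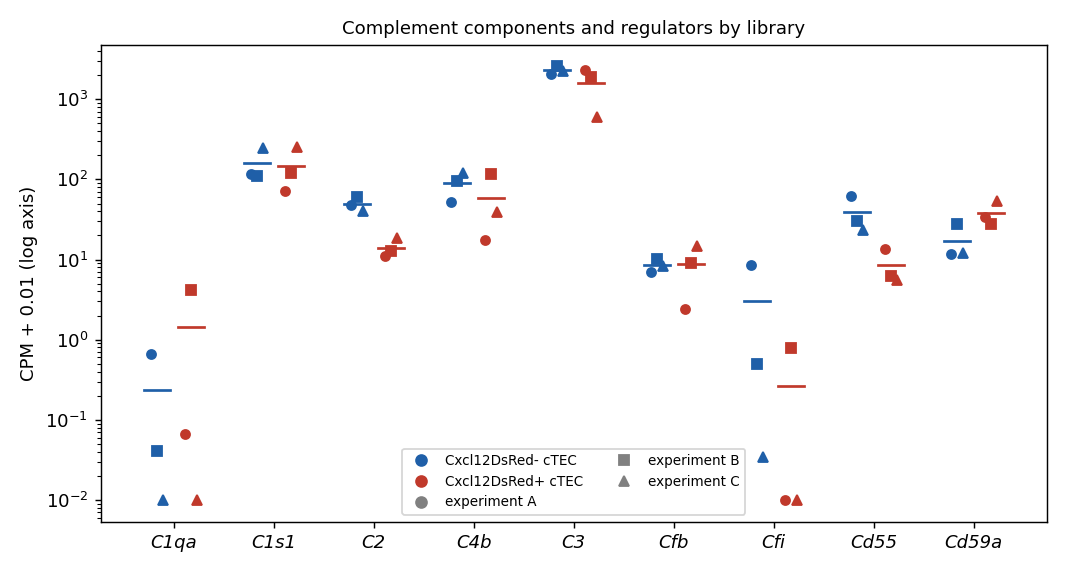
CPM + 0.01 on a log axis for the 9 members, in Cxcl12DsRed- cTEC (blue, left) and Cxcl12DsRed+ cTEC (red, right). Points are libraries, with a shape for each experiment, and bars are means of 3 libraries. *C2* and *Cd55* lie higher in all 3 Cxcl12DsRed- libraries, *C3* stands far above the other members, and *C1qa* and *Cfi* each rest on few libraries.

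Sequences before the start sites of *Cd55* and *Cd59a*, membrane regulators with fold changes of opposite sign, and of *C3*, the most abundant member, are shown so that their composition can be set beside the levels. They are the 250 bases before the RefSeq start on GRCm38.p6, 5′ to 3′ on the gene's strand, at chr1:130462745-130462994 (minus), chr2:104095551-104095800 (plus) and chr17:57228137-57228386 (minus). Capitals mark a GC box (GGGCGG) in *Cd55* and a C/EBP site (TTGCNNAA) in *C3*, each on either strand.
Cd55: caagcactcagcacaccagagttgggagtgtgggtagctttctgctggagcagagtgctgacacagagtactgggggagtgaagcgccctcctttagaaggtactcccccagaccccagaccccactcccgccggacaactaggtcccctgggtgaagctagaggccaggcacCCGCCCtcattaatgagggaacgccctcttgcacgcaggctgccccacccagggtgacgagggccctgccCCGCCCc
Cd59a: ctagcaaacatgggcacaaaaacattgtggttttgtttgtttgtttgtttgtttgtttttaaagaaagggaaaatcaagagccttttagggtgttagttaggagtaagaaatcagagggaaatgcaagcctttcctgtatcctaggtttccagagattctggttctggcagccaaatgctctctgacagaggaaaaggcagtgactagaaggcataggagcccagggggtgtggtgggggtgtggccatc
C3: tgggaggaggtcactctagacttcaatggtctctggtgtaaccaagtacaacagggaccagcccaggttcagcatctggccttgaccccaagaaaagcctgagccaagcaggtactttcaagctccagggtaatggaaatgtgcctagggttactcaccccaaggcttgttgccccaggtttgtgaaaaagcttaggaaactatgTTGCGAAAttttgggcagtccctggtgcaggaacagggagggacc

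The *Cd55* window had 64% G or C and 8 CG steps, with GC boxes at −77 to −72 and −7 to −2 from the start. That of *Cd59a* had 44.8% G or C and 0 CG steps, and that of *C3* 52% and 1, against medians of 52.4% and 6 over all 32851 windows. The C/EBP letters in *C3* lie at −45 to −38. The C/EBP letters were chosen with the *C3* sequence in view. Of all windows 32.7% hold the GC box and 9.56% the C/EBP letters. Searched with them on both strands were CCAAT (in 33.8% of windows), the FOXN1 core letters GACGC (22.6%), TATAAA (12.4%), TTCNNNGAA of STAT sites (7.02%) and the NF-kB site (7.25%), and none of these letters were in the 3 windows. RefSeq windows were matched for 4 of the 9 members by symbol, the remaining one being *C1s1*, whose 2 windows are not shown. The C/EBP letters also lie in 1 of these, at −242 to −235.

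*C1qa* encodes the A chain of C1q, the recognition subunit that binds antibody and other surfaces. It had 28, 1 and 0 counts in Cxcl12DsRed- cTEC of experiments A, B and C, against 3, 201 and 0 counts in Cxcl12DsRed+ cTEC. The Cxcl12DsRed+ library of B thus held 201 of the 233 counts, and the subsets overlapped. Without a filter on low counts *C1qa* had a log2 fold change of −2.69 (adjusted p = 0.670, edgeR's quasi-likelihood test).

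The B and C chains of C1q come from neighbouring genes and are made with the A chain. *C1qb* stood at 0.0231, 6.18 and 0.541 CPM in Cxcl12DsRed- cTEC, against 0.0189, 10.8 and 0.696 CPM in Cxcl12DsRed+ cTEC. *C1qc* stood at 0.0462, 2.80 and 0.812 CPM in Cxcl12DsRed- cTEC, against 1.002, 16.1 and 1.88 CPM in Cxcl12DsRed+ cTEC. Both were thus highest in the Cxcl12DsRed+ library of B, as *C1qa* was. In the Cxcl12DsRed- library of B the 3 chains parted, with 1 count of *C1qa* beside 203 of *C1qb* and 92 of *C1qc*.

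**Figure D2:**
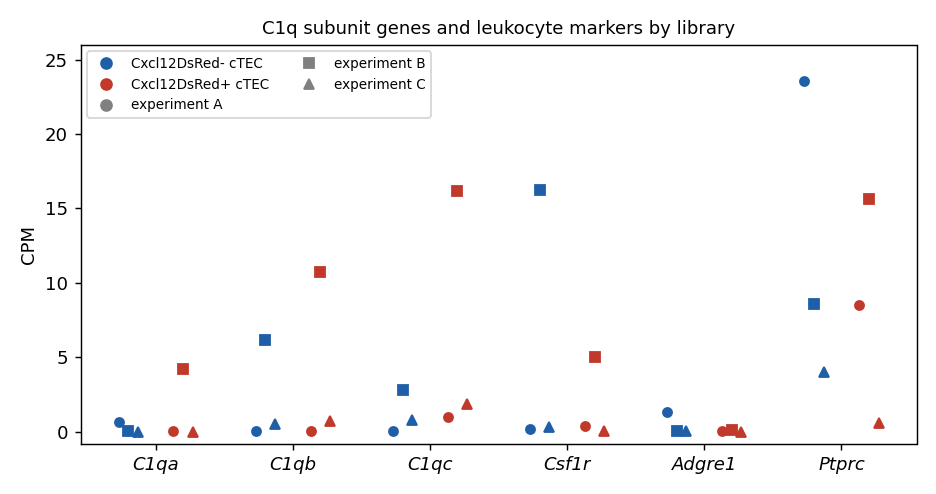
CPM of the 3 C1q chain genes, of the macrophage genes *Csf1r* and *Adgre1*, and of *Ptprc*, the gene of CD45, on a linear axis in Cxcl12DsRed- cTEC (blue, left) and Cxcl12DsRed+ cTEC (red, right), with 1 point per library and the experiment as its shape. The C1q genes are highest in the Cxcl12DsRed+ library of B, whereas *Csf1r* is highest in the Cxcl12DsRed- library of B and *Ptprc* in that of A.

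Macrophage markers were read beside them in part. *Csf1r*, the receptor gene for a macrophage growth factor, stood at 0.162, 16.2 and 0.320 CPM in Cxcl12DsRed- cTEC, against 0.416, 5.03 and 0.0258 CPM in Cxcl12DsRed+ cTEC, so that experiment B was highest in both subsets. *Adgre1*, the gene of F4/80, had at most 1.32 CPM in any library, and *Vsig4* had 0 counts in all 6. The 13 macrophage markers, which include the C1q genes, summed to 136 to 846 CPM in Cxcl12DsRed- cTEC and 30.2 to 114 CPM in Cxcl12DsRed+ cTEC. *Lyz2* alone stood at 128 to 803 CPM in Cxcl12DsRed- cTEC and 19.1 to 80.8 CPM in Cxcl12DsRed+ cTEC. *Ptprc*, whose protein was excluded by the sort, stood at 4.03 to 23.5 CPM in Cxcl12DsRed- cTEC and 0.618 to 15.6 CPM in Cxcl12DsRed+ cTEC. The part of leukocytes in the C1q counts was not tested.

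*C1s1* encodes C1s, the protease of the complex that cuts C4 and C2. Its levels were 116, 111 and 248.7 CPM in Cxcl12DsRed- cTEC of A, B and C, against 71.5, 120 and 256 CPM in Cxcl12DsRed+ cTEC. Both libraries of experiment C were high, and within that experiment the subsets stood at a ratio of 0.970. The log2 fold change was 0.09 (95% interval −1.16 to 1.34, adjusted p = 0.978, edgeR's quasi-likelihood test), an interval that holds folds from 0.448 to 2.53. By windows of 50 bases, 24.3% of the longest *C1s1* transcript is also found in its copy *C1s2*, and such reads would align to both places. *C1s2* itself had at most 1.47 CPM in a library.

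*C1ra*, which encodes the partner protease C1r, differed more between the subsets. It stood at 125, 130 and 222 CPM in Cxcl12DsRed- cTEC, against 86.7, 109 and 85.1 CPM in Cxcl12DsRed+ cTEC, with no overlap. The log2 fold change was 0.76 (standard error 0.28) and did not pass (adjusted p = 0.331, the same edgeR test).

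*C2* encodes the serine protease that forms the catalytic part of the classical and lectin convertase. It lies in the MHC region of chromosome 17, on the minus strand of GRCm38 (mm10) at chr17:34862604-34898265. Its counts were 2062, 1985 and 1638 in Cxcl12DsRed- cTEC, against 584, 607 and 721 in Cxcl12DsRed+ cTEC. Scaled, these were 47.6, 60.4 and 40.3 CPM (mean 49.4 ± 10.2, SD, n = 3) against 11.04, 12.7 and 18.6 CPM (14.1 ± 3.97, SD, n = 3). The lowest Cxcl12DsRed- library was above the highest Cxcl12DsRed+ library, and the ratio within an experiment was 4.31 in A, 4.77 in B and 2.17 in C. The fitted log2 fold change was 1.81 (standard error 0.33, 95% interval 1.03 to 2.59), with an unadjusted p of 9.3e-04 and an adjusted p of 0.0717 from edgeR's quasi-likelihood test (0.169 when blocked by experiment). It passed by edgeR's likelihood ratio test (adjusted p = 0.000798) and by DESeq2 (adjusted p = 5.4e-05). Leaving out each library in turn left the log2 fold change at 1.62 to 2.02.

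*C4b* lies in the same region, at chr17:34728380-34743882 on the minus strand, and encodes complement C4, the thioester protein that C1s cleaves. It stood at 52.9, 94.4 and 121 CPM in Cxcl12DsRed- cTEC, against 17.7, 119 and 38.7 CPM in Cxcl12DsRed+ cTEC. *C4b* was higher in Cxcl12DsRed- cTEC of A and C, by 2.99 and 3.12 times, and lower in B, at 0.796 times, so the subsets overlapped. The log2 fold change was 0.61 (95% interval −0.99 to 2.22, adjusted p = 0.844, edgeR's quasi-likelihood test), and leaving out 1 library moved it between 0.14 without the Cxcl12DsRed+ library of A (adjusted p = 0.987) and 1.67 without that of B (adjusted p = 0.384). Its copy *C4a* shares 35.2% of its 50-base windows and had at most 0.302 CPM in a library.

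*C3*, the central component that every pathway cleaves, lies apart from them at chr17:57203970-57228136 on the minus strand. It had 89443, 84841 and 91843 counts in Cxcl12DsRed- cTEC of A, B and C, against 121152, 90068 and 23617 counts in Cxcl12DsRed+ cTEC. Scaled, the Cxcl12DsRed- libraries lay between 2065 and 2581 CPM (mean 2302 ± 261, SD, n = 3), and the Cxcl12DsRed+ libraries at 2290, 1879 and 609 CPM (1592 ± 876, SD, n = 3). The Cxcl12DsRed+ library of C alone stood low, and the subset ratio was 0.902 in A, 1.37 in B and 3.71 in C. The log2 fold change of 0.53 (95% interval −0.54 to 1.60) did not pass (adjusted p = 0.768, edgeR's quasi-likelihood test) and was 0.11 without that library (adjusted p = 0.974) and 0.84 without the Cxcl12DsRed+ library of A (adjusted p = 0.619).

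Among the members *C3* made up 83.3% to 88.5% of the summed CPM in Cxcl12DsRed- cTEC and 61.1% to 93.9% in Cxcl12DsRed+ cTEC. Per length of exon it ranked between place 102 and 128 of 15426 genes in the Cxcl12DsRed- libraries, and at 93, 149 and 539 in the Cxcl12DsRed+ libraries of A, B and C. The sum of the other 8 members was 307, 335 and 453 CPM in Cxcl12DsRed- cTEC against 150, 299 and 387 CPM in Cxcl12DsRed+ cTEC, higher in Cxcl12DsRed- cTEC of every experiment while the subsets overlapped. Over the 6 libraries, the genes whose log2 CPM was most like that of *C3* were *Oas1g*, *Col4a5* and *Chkb* (Pearson's r = 0.993, 0.993 and 0.992, among 9518 genes with a mean of at least 10 CPM). With so few libraries 48 genes had r above 0.95, and these points share the low value of the Cxcl12DsRed+ library of C. For *C1s1* they were *Cebpd*, a gene without a symbol in the annotation, and *Fam107a* (r = 0.973, 0.972 and 0.967), and for *C4b* *Ccl7*, *Rpl10a* and *Rpl12* (r = 0.993, 0.989 and 0.977).

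*Cfb* encodes factor B, the counterpart of C2 in the alternative pathway, and lies directly beside *C2* at chr17:34856374-34862518 on the minus strand. It stood at 7.09, 10.1 and 8.36 CPM in Cxcl12DsRed- cTEC, against 2.42, 8.97 and 14.9 CPM in Cxcl12DsRed+ cTEC. The direction turned between experiments, with ratios of 2.93 in A, 1.13 in B and 0.562 in C. The log2 fold change was −0.04 (95% interval −1.78 to 1.71, adjusted p = 0.994, edgeR's quasi-likelihood test), and 0.29 when blocked by experiment. The neighbours *C2* and *Cfb* thus differed in pattern, although their difference in fold change was not tested.

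Counting limits *Cfb* and *C2* in particular. The annotation holds a read-through gene, *Gm20547*, that spans both, and 79.5% of the exon bases of *Cfb* and 42.8% of those of *C2* lie in its exons too. A read inside exons of more than 1 gene is ambiguous in the counting mode that the authors used, and *Gm20547* had 0 counts in all 6 libraries. The counts of *Cfb* can then come from as few as 579 of its 2825 exon bases. Divided by exon length, *Cfb* stood at 3.02 CPM per kb in Cxcl12DsRed- cTEC and 3.10 in Cxcl12DsRed+ cTEC, and divided by the bases shared with no other gene at 14.7 and 15.1 CPM per kb. For *C2* the corresponding values were 12.8 and 3.64, and 24.1 and 6.86 CPM per kb. The length used does not touch the fold changes.

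**Figure D3:**
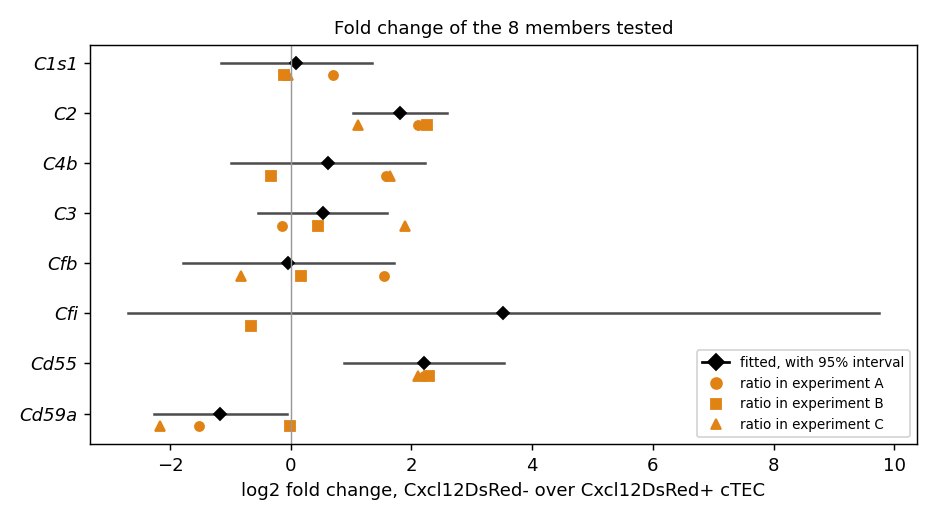
Log2 fold change of Cxcl12DsRed- over Cxcl12DsRed+ cTEC for the 8 members tested. Diamonds are fitted values with their 95% intervals, and orange points below them are the ratios within experiments A, B and C, shown where both libraries had counts. The 3 ratios of *Cd55* fall almost on each other, whereas those of *Cfb*, *C4b* and *C3* lie on both sides of 0.

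*Cfi* encodes factor I. It had 367, 16 and 1 counts in Cxcl12DsRed- cTEC and 0, 37 and 0 counts in Cxcl12DsRed+ cTEC. The Cxcl12DsRed- library of A alone held 367 of the 421 counts, at 8.48 CPM. The log2 fold change of 3.52 had an interval from −2.70 to 9.74 (adjusted p = 0.721, edgeR's quasi-likelihood test) and was −0.08 without that library and 9.95 without the Cxcl12DsRed+ library of B. *Cfi* was thus a transcript of 1 library at any appreciable level. That library also had the highest tuft cell marker sum, 2620 CPM against 770 and 482 CPM in the Cxcl12DsRed- libraries of B and C. This was not particular to tuft cells. Its secretory epithelial sum was 5876 against 3935 and 2407 CPM. Its cTEC, medullary epithelial, pericyte and B cell sums were also the highest of the Cxcl12DsRed- libraries. Single genes of these lists differed. *Krt8* and *Acta2* were highest there, whereas *Foxn1* and *Rgs5* were highest in the Cxcl12DsRed- library of B. The part of any of these cells in *Cfi* was not tested.

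*Cd55* encodes decay-accelerating factor, the membrane-anchored regulator that dissociates the C3-cleaving enzymes. It had 2713, 1005 and 957 counts in Cxcl12DsRed- cTEC, against 721, 298 and 213 counts in Cxcl12DsRed+ cTEC. Scaled, the values were 62.7, 30.6 and 23.5 CPM (mean 38.9 ± 20.8, SD, n = 3) and 13.6, 6.22 and 5.49 CPM (8.44 ± 4.50, SD, n = 3). The subsets did not overlap. Experiment A was highest in both, and the ratio within an experiment was 4.60 in A, 4.92 in B and 4.29 in C. The fitted log2 fold change was 2.20 (standard error 0.56, 95% interval 0.88 to 3.53) with an adjusted p of 0.145 from edgeR's quasi-likelihood test (0.110 when blocked by experiment). By edgeR's likelihood ratio test the adjusted p was 0.0108, and 0.000204 with the block, and by DESeq2 it was 0.00361. Without the Cxcl12DsRed- library of A the log2 fold change was 1.65 (adjusted p = 0.396). The tuft cell and the secretory epithelial sums rank the Cxcl12DsRed- libraries in the same order as *Cd55*, A, B and C. So do the cTEC, medullary epithelial, pericyte and B cell sums. Most single genes of these last lists do not. Only *Krt8*, *Enpep*, *Ccl21a*, *Krt14*, *Acta2* and *Cd79b* among them keep that order, while *Prss16* stood at 74.5, 163 and 153 CPM. In Cxcl12DsRed+ cTEC the secretory epithelial sum kept that order, at 1496, 1179 and 824 CPM. It was mostly *Krt7* (1415, 1085 and 719 CPM). Of the other secretory markers only *Slpi* kept that order there, at 5.31, 2.32 and 1.55 CPM. The tuft cell sum there was 38.9, 36.2 and 38.0 CPM. The part of these cells in the level of *Cd55* was not tested. The copy *Cd55b* shares 10.9% of the 50-base windows and was read in the Cxcl12DsRed- library of A alone, at 3.05 CPM.

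*Cd59a* encodes the anchored protein that keeps the membrane attack complex from forming. It stood at 11.7, 27.6 and 12.0 CPM in Cxcl12DsRed- cTEC (mean 17.1 ± 9.12, SD, n = 3), against 33.6, 27.8 and 53.4 CPM in Cxcl12DsRed+ cTEC (38.2 ± 13.4, SD, n = 3). All Cxcl12DsRed- libraries were below all Cxcl12DsRed+ libraries, but in experiment B the ratio was 0.993, against 0.347 in A and 0.224 in C. The log2 fold change was −1.16 (standard error 0.47, 95% interval −2.27 to −0.06, adjusted p = 0.394, edgeR's quasi-likelihood test), and leaving out 1 library moved it between −1.70 without the Cxcl12DsRed- library of B (adjusted p = 0.192) and −0.89 without the Cxcl12DsRed+ library of C (adjusted p = 0.647). The Cxcl12DsRed+ library of C had the highest *Cd59a*. It also had the highest sum of endothelial markers, 4543 CPM against 567 and 595 CPM in the Cxcl12DsRed+ libraries of A and B. Its pericyte sum (1245 against 524 and 509 CPM) and red cell sum (3363 against 137 and 288 CPM) were highest too. The part of these cells in *Cd59a* was not tested. *Cd59b*, the neighbouring copy, stood at 6.44, 11.23 and 8.31 CPM in Cxcl12DsRed- cTEC against 6.97, 8.07 and 6.37 CPM in Cxcl12DsRed+ cTEC, with overlap.

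Of the 8 members tested, 2 were higher and 1 was lower in every Cxcl12DsRed- library. Among all genes tested 9.73% were higher without overlap and 9.32% lower. Without the Cxcl12DsRed- library of C, which stood nearer to the Cxcl12DsRed+ libraries than its partners did, the log2 fold change was 1.93 for *C2*, 2.46 for *Cd55* and −0.97 for *Cd59a* (adjusted p = 0.0870, 0.128 and 0.417, edgeR's quasi-likelihood test).

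Per length of exon, the order of mean levels in Cxcl12DsRed- cTEC was *C3* (448 CPM per kb), *C1s1* (50.7), *C4b* (15.7), *C2* (12.8), *Cd59a* (9.43), *Cd55* (8.02), *Cfb* (3.02), *Cfi* (1.35) and *C1qa* (0.217). Only *C3* from *C1s1*, *C1s1* from *C4b*, and *Cd55* from *Cfb* were apart beyond the range of their libraries among these neighbours. In Cxcl12DsRed+ cTEC *Cd59a* followed *C1s1* (21.1 CPM per kb) and *C4b*, *C2*, *Cfb* and *Cd55* followed (10.2, 3.64, 3.10 and 1.74), and of all neighbours only *C3* and *C1s1* did not overlap. With the bases shared with no other gene as length, *Cfb* moved up to place 5 in Cxcl12DsRed- cTEC and 4 in Cxcl12DsRed+ cTEC.

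The wider pathway was read through a list of 56 complement genes, of which 31 passed the filter on low counts and 5 had no count in any library. None passed edgeR's quasi-likelihood test (4 higher and 1 lower at an unadjusted p under 0.05, beside 1840 of all 15576 genes). The median log2 fold change was 0.26, beside 0.02 over all genes tested, with 19 positive and 12 negative. Of the 31, 4 were higher and 2 lower without overlap, beside 9.73% and 9.32% of all genes. By the likelihood ratio test and by DESeq2 3 passed, *C2*, *Cd55* and *Itgam*, beside 5.65% and 7.19% of all genes.

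**Figure D4:**
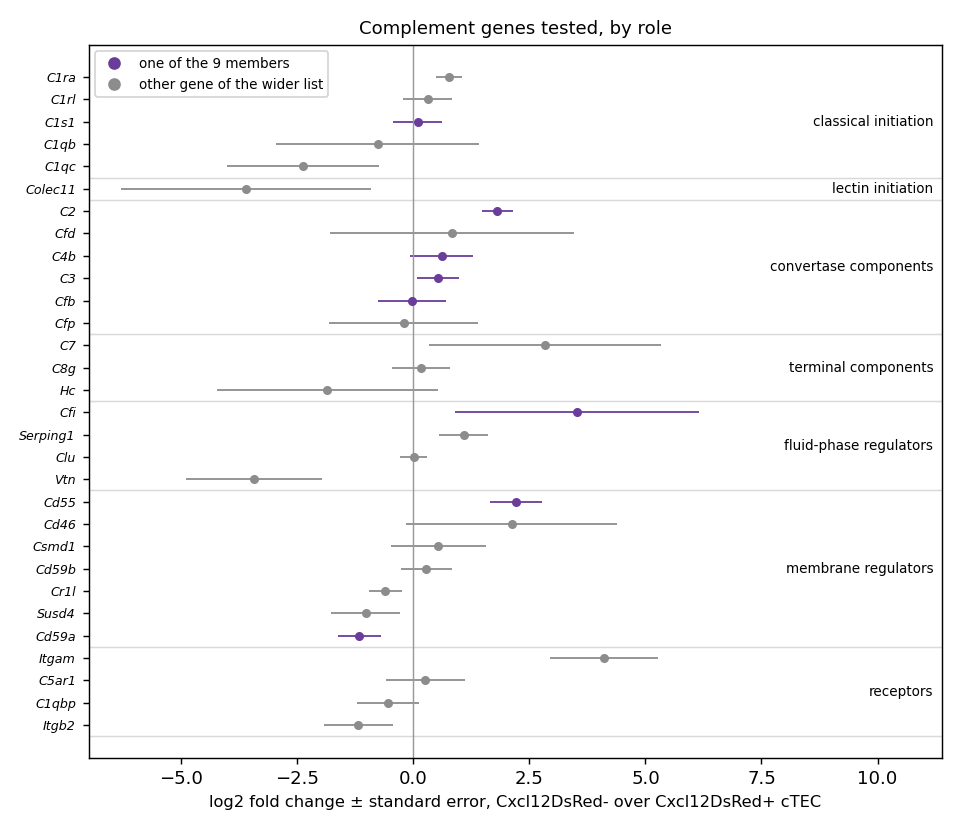
Log2 fold change with its standard error, Cxcl12DsRed- over Cxcl12DsRed+ cTEC, for the complement genes tested and reported here, grouped by role from initiation at the top to receptors at the bottom. Members are in purple and the other genes in grey. *C2* and *Cd55* lie right of 0 with standard errors of 0.33 and 0.56, and *Itgam* lies farthest right. *Colec11*, *Cfd*, *Cfi* and *C7*, among others, have long error bars.

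Other components were lower in level or varied by library. *Cfd*, the gene of the factor D protease that activates factor B, stood at 0.0231, 0.0304 and 19.9 CPM in Cxcl12DsRed- cTEC, against 0.737, 0 and 10.4 CPM in Cxcl12DsRed+ cTEC, and was thus high in experiment C alone. *Cfp*, which encodes the convertase stabilizer properdin, stood at 0.393 to 4.47 CPM in Cxcl12DsRed- cTEC and 0.283 to 9.97 CPM in Cxcl12DsRed+ cTEC. Of the terminal components, *C6* and *C8a* had no counts and *Hc*, the gene of C5, had at most 4.03 CPM. *C7* reached 35.9 CPM in the Cxcl12DsRed- library of C and 3.53 CPM at most elsewhere. *C4bp*, which encodes a C4b-binding cofactor and was left out by the filter, had 499, 308 and 0 counts in Cxcl12DsRed- cTEC, against 0, 1 and 3 counts in Cxcl12DsRed+ cTEC (adjusted p = 0.320 without the filter, edgeR's quasi-likelihood test). Of 8 lectin pathway genes only *Colec11* passed the filter.

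Among soluble regulators, *Serping1*, which encodes the inhibitor of C1r and C1s, stood at 336, 358 and 776 CPM in Cxcl12DsRed- cTEC, against 103, 211 and 379 CPM in Cxcl12DsRed+ cTEC. It was higher in Cxcl12DsRed- cTEC of every experiment, while experiment C was highest in each subset and the subsets overlapped. Its adjusted p was 0.518 in edgeR's quasi-likelihood test and 0.0119 in the likelihood ratio test blocked by experiment. The fibroblast sum was likewise higher in Cxcl12DsRed- cTEC of every experiment, as were the tuft cell and secretory epithelial sums, among others. In Cxcl12DsRed+ cTEC of A, B and C the fibroblast sum was 1770, 1903 and 1286 CPM. Most of it was *Dcn*, at 1491, 1512 and 633 CPM. *Dcn*, *Lum* and *Fbln1* were not highest in C there, where *Serping1* was. *Pdgfra*, *Pdgfrb*, *Col1a1*, *Col1a2*, *Col3a1* and *Dpt* were highest in C. The part of these cells in *Serping1* was not tested. *Clu*, which encodes clusterin, an inhibitor of the membrane attack complex, stood at 1912, 1501 and 1253 CPM in Cxcl12DsRed- cTEC, against 1710, 1964 and 984 CPM in Cxcl12DsRed+ cTEC (log2 fold change 0.00, 95% interval −0.71 to 0.71). *Vtn*, the gene of vitronectin, another inhibitor of that complex, stood at 8.198, 0.0913 and 8.19 CPM in Cxcl12DsRed- cTEC, against 7.84, 50.5 and 120 CPM in Cxcl12DsRed+ cTEC (adjusted p = 0.430, edgeR's quasi-likelihood test).

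Of membrane regulators, *Cr1l*, which encodes Crry, the rodent cofactor and decay protein, stood at 53.7, 86.7 and 94.99 CPM in Cxcl12DsRed- cTEC, against 98.8, 85.0 and 174 CPM in Cxcl12DsRed+ cTEC. *Susd4* stood at 8.11, 30.0 and 86.4 CPM in Cxcl12DsRed- cTEC, against 103, 77.8 and 72.8 CPM in Cxcl12DsRed+ cTEC. *Cd46* was nearly missing, at no more than 1.43 CPM. None of these 3 passed (adjusted p of 0.606 to 0.838, edgeR's quasi-likelihood test).

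Of receptors, *Itgam*, which encodes the alpha chain of the C3 fragment receptor CR3, stood at 46.3, 15.7 and 6.44 CPM in Cxcl12DsRed- cTEC, against 0.510, 3.07 and 0.387 CPM in Cxcl12DsRed+ cTEC. Its log2 fold change of 4.11 (standard error 1.17) gave an adjusted p of 0.194 in edgeR's quasi-likelihood test. It was 3.02 without the Cxcl12DsRed- library of A and 5.64 without the Cxcl12DsRed+ library of B. The tuft cell, macrophage, secretory epithelial, fibroblast and B cell sums were likewise higher in every Cxcl12DsRed- library. By single genes this held for 10 of 10 tuft cell and 8 of 9 secretory epithelial markers. It held for 2 of 9 fibroblast markers, 1 of 5 B cell markers and 1 of 13 macrophage markers, *Lyz2*. Other macrophage markers overlapped, and some had lower means in Cxcl12DsRed- cTEC, such as *Mertk* at 1.42 against 13.5 CPM. The part of any of these cell types in *Itgam* was not tested. Its beta chain gene *Itgb2* went the other way, at 1.52, 9.98 and 5.83 CPM in Cxcl12DsRed- cTEC against 13.5, 15.8 and 10.1 CPM in Cxcl12DsRed+ cTEC, without overlap (adjusted p = 0.644). The C3a receptor gene *C3ar1* had at most 2.67 CPM and the C5a receptor gene *C5ar1* at most 1.74 CPM. In these bulk libraries fewer cells of a type and less RNA per cell cannot be told apart.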

How the data were processed

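RNA of the sorted cells was amplified with the SMARTer Ultra Low Input kit and sequenced on a NovaSeq. The authors used Trimmomatic 0.36 for trimming, STAR 2.7.3a for alignment (mm10) and HTSeq in intersection-nonempty mode for counting, and deposited raw counts. The annotation release was not given in the sources used here, nor was the strand setting. Of 39277 entries, 92 spike-ins (0 counts), 5 summaries and the reporter entered neither library sizes nor tests. Reads in no gene equalled 5.88% to 9.35% of gene counts and ambiguous reads 1.21% to 1.38%.

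Symbols, coordinates and exon lengths came from GENCODE M21 (GRCm38, the genome called mm10), which held 37693 IDs. CPM uses TMM-scaled library sizes. edgeR 4.0.16 (R 4.3.3) tested 15576 genes across all 6 libraries after filterByExpr with a minimum count of 10, by the quasi-likelihood test with a prior count of 0.125, Benjamini-Hochberg adjustment and a threshold of 0.05. Standard errors are the fold change over the root of the F statistic. Every fold change is Cxcl12DsRed- over Cxcl12DsRed+. Alternatives were the likelihood ratio test, DESeq2 1.42.0, limma 3.58.1 with voom, other scaling and filters, leave-outs, and the experiment as a replicate block. The labels pair libraries by experiment, and deviations from subset means correlated at 0.0351, 0.0904 and 0.0778 within pairs. Between subsets of different experiments they correlated at −0.112 to 0.0075. No 2 libraries were duplicates (chi-square per degree of freedom 168 to 725). Members and lists were chosen with earlier results of these data known. Named genes were the 9 members, the partners and copies of members, the 14 most abundant others of the wider list and the 3 genes most like the 3 most abundant members; other genes were named after their values were seen. The result of 1 gene of the wider list is not reported here, although the counts over the list include it. Amplified reads are not molecules, and p-values measure only the spread between these libraries.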

Additional observations from a re-analysis of the deposited data

How the results depend on the processing

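The count of 0 members past the threshold became 2 (*C2* and *Cd55*) by edgeR's likelihood ratio test, by that test with the replicate block and by DESeq2, and stayed 0 with the replicate block in the quasi-likelihood test, with limma voom, the scalings, the filters and all leave-outs. For the wider list 0 became 3 (likelihood ratio test), 5 (the same with the block, *Serping1* among them) and 3 (DESeq2). All genes called were 97, and 73 with the replicate block, 880, 1060, 1081 and 4 by the likelihood ratio test, that test with the block, DESeq2 and limma voom. They were 168 without a filter, 139 without the Cxcl12DsRed- library of C, 35 without both libraries of C, and at most 1 in the other leave-outs. Over the 18 alternatives *C2*, *Cd55*, *Cd59a*, *C3* and *C4b* kept their direction. With the replicate block *C7*, *Cfd* and *Cfp* turned, to −2.92, −0.41 and 0.83, and other alternatives were not examined for them. *Cfb*, *C1s1*, *Cfi* and *Clu* turned too. *Cfb* was 0.29 with the replicate block in either test and 0.41 by limma voom, and −0.52 to 0.57 in leave-outs. *C1s1* was −0.40 to 0.70 and *Cfi* −0.66 to 9.95 in leave-outs. *Clu* was −0.051 with library totals only, −0.039 without a filter, −0.0093 with a mean of at least 1 CPM, and −0.28 to 0.23 in leave-outs. The cause of these turns was not tested. With the exon bases shared with no other gene as length, an alternative chosen after seeing the data, the levels of *Cfb* and *C2* per kb moved by more than 1 SD, and with the longest transcript those of *C2* (18.7 in Cxcl12DsRed- and 5.34 in Cxcl12DsRed+ cTEC) and *Cd55* (12.4 and 2.695 in the same order) did. *C1qa* and *Cfi* had 233 and 421 counts over all 6 libraries, of which 201 and 367 were in 1 library each.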
